A study of Mus musculus with 2 samples.

Results

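The forkhead transcription factor genes were followed in mouse ureter explants in which canonical WNT signaling had been switched on with a drug. Members were all biological probes whose gene name on the array was Fox, a subfamily letter from a to s and a number. They comprised 62 of 39429 probes and 44 of 29875 genes, in 19 subfamilies named by letter. The ureters came from wildtype NMRI mouse embryos, an outbred stock, at E12.5, and the sex of the embryos was not given. After being cut free of kidney and bladder, they were cultured for 18 h in medium without serum, with 10 µM BIO, an inhibitor of the kinase GSK3, or with the solvent DMSO alone at 2 parts per 1000. RNA of a pool of BIO-treated ureters and RNA of a pool of control ureters were hybridized to the same 2-color array. There were 2 such arrays, each with separate pools, and both lay on 1 slide. In replicate 1 the BIO RNA was in the red channel, and in replicate 2 the dyes were exchanged and BIO was in the green channel.

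Forkhead proteins share a winged-helix domain that binds DNA, and the family is sorted by the sequence of that domain into subfamilies that often act in different germ layers. FOXA proteins open chromatin in epithelia of the endoderm and the urinary tract, FOXF proteins act in mesenchyme that receives SHH from a neighboring epithelium, FOXO proteins are kept out of the nucleus by insulin and PI3K signaling, and FOXM1 drives genes of mitosis. In the early ureter, an axis of SHH, FOXF1 and BMP4 links epithelium and mesenchyme, and WNT ligands of the epithelium signal back to the mesenchyme.

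Each gene was measured by probes of 60 bases, each spotted 4 times per array. The beginnings of the probes for the genes on which the results turned most are shown, as the first 30 bases of each, read 5′ to 3′ from the array files, with no base singled out. The Foxq1 probe lay at chr13:31652206-31652265 in build mm9, plus strand, and started at base 2167 of transcript NM_008239. The Foxa1 probe lay at chr12:58641764-58641823, minus strand, at base 2982 of NM_008259. The Foxf1 probes lay at chr8:123611944-123612003 and chr8:123610681-123610740, plus strand, at bases 2314 and 1051 of NM_010426, and the Foxm1 probes at chr6:128324783-128324842 and chr6:128323866-128323925, plus strand, at bases 3243 and 2326 of NM_008021. As parts of transcripts all of these sites are exonic, and whether they are coding was not determined.
Foxq1 probe: tgtaactttacagaggatcaaagccgttct
Foxa1 probe: gcatggtttactccttttctttacagccga
Foxf1 probe nearer the transcript's end: cctcctttctgcactgtataaaagggacaa
Foxf1 second probe: ttcaatgccatggcctcttcttctatgcat
Foxm1 probe nearer the transcript's end: cctagaccccactctacaagctacagaaca
Foxm1 second probe: ttgtcctggacacaatgaatgatagcctca

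Promoter sequences from RefSeq (GRCm38.p6) matched 28 of the 44 genes, with 33 start sites. Of the 13 genes that changed in the test described further on, 7 had an entry, and Foxq1, Foxm1, Foxp2, Foxk1 and Foxs1 were among those with none. Windows from 250 bases before to 50 after each start were searched on both strands for a TCF/LEF motif, CTTTGAA or CTTTGAT, the sequence through which canonical WNT signaling reaches DNA, and for a forkhead motif, GTAAACA or ATAAACA. None of these motifs overlapped another in the promoters printed. The TCF/LEF motif was present at 2 of the 33 forkhead start sites (6.06%) and in 8.65% of all 32851 promoters. These were a site of Foxp1 and a site of Foxa2, where the match began at position 14, after the start. The forkhead motif was present at 4 of the 33 (12.1%) and in 7.97% of all promoters. The median GC content was 62.7% for the forkhead windows and 52.7% for all windows. The 250 bases before the start are printed for 3 genes that fell, 1 called as rising and the start site of Foxp1 that held both motifs, with motif matches in capitals.
Foxa1, chr12:57546112-57546361, minus strand: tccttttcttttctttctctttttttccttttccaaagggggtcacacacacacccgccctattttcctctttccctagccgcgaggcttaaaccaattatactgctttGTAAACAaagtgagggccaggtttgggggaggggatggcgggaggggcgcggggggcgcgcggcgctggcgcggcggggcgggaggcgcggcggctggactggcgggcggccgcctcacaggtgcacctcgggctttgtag
Foxd2, chr4:114908899-114909148, minus strand: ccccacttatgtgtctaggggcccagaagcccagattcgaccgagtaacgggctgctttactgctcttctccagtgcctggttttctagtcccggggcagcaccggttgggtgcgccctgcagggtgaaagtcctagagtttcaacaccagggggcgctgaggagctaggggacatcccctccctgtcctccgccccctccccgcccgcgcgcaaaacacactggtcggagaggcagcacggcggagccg
Foxd1, chr13:98353995-98354244, plus strand: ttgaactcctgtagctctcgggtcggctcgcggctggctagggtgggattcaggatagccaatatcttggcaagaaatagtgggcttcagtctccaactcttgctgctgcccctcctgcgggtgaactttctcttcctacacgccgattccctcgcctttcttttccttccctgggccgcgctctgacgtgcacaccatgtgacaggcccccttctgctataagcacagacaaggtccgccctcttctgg
Foxi3, chr6:70956356-70956605, plus strand: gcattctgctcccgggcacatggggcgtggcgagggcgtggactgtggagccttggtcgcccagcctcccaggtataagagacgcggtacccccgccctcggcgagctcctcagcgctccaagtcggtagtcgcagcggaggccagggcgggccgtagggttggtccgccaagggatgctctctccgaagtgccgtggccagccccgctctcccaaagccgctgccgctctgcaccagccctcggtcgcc
Foxp1, chr6:99266516-99266765, minus strand: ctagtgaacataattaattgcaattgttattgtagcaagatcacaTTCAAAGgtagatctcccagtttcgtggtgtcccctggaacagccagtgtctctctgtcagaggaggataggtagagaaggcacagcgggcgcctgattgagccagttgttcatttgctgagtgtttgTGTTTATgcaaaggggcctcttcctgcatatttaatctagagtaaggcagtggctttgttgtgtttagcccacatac
The capitals in Foxa1 are a forkhead motif that begins at position -141 from the start. Those in Foxp1 are a TCF/LEF motif at -205 and a forkhead motif at -77, both on the opposite strand. The Foxd2, Foxd1 and Foxi3 windows held neither. These are matches of letters, and binding was not measured.

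The first question was which forkhead genes were measurable in the ureter at all. The scanner software marks each spot as well above background or not, and a probe was taken as such in a channel if a share above 0.5 of its spots had the mark. By this criterion 34 of the 44 genes (77.3%) were well above background in control or in BIO on both arrays, compared with 72.2% of all 29875 genes. In control there were 32 such genes (71.8% of all genes) and in BIO 32 (68.2% of all genes). They belonged to 17 of the 19 subfamilies, and 46 of the 62 probes passed.

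All members of subfamilies C, D, F, H, J, K, L, M, O, Q and S were measurable. A gene counted as such if 1 of its probes passed. For Foxl2, a probe at chr9:98856894-98856950 had signals from 1530 to 1845. A second, overlapping it at chr9:98856846-98856905, had signals from 7.2 to 9.43 and did not pass. Which of them reads Foxl2 was not tested. Of subfamily A, Foxa1 and Foxa2 were and Foxa3 was not. Foxe1, a thyroid gene, was measurable by 1 of its 2 probes, whereas the lens gene Foxe3 was not. The Foxe1 probe that passed had signals from 69.6 to 87.8. The other had signals from 1.09 to 2.53 and was not well above background in any channel. In subfamily I, Foxi1 and Foxi3 were measurable, but not Foxi2. In subfamily N the widely expressed Foxn2 and Foxn3 passed, whereas Foxn1, which acts in thymic epithelium, and Foxn4, a retinal gene, did not. In subfamily P the gene of regulatory T cells, Foxp3, failed and Foxp1, Foxp2 and Foxp4 passed. Subfamilies B and R had no gene that passed.

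The 10 genes left out were of 2 kinds. Foxb1, Foxb2, Foxe3, Foxn1 and Foxn4 were not well above background in any of the 4 channels. Foxa3, Foxi2, Foxp3, Foxr1 and Foxr2 were well above background only in green channels, that is in control of replicate 1 and, except for Foxr1, in BIO of replicate 2. The green channel had the lower local background, with a median of 27 on both arrays, against 60 and 59 in red. Foxr2, for example, had processed signals, the background-subtracted and dye-normalized intensities, of 7.79 in control and 10.6 in BIO on replicate 1, and of 8.36 and 19.4 on replicate 2. Those genes entered no test.

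Among the 34 genes that passed, 30 did so in all 4 channels. The other 4, among them Foxa2, Foxh1 and Foxi3, passed in 3, and their ratios rest on dim spots.

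The main comparison was BIO against control within each array. Ratios were tested against 0 with limma, with Benjamini-Hochberg adjustment over all 28824 probes tested, and each gene was represented by its tested probe of highest intensity. Forkhead genes called as falling with BIO were led by Foxq1 and Foxa1, both of which act in epithelia, followed by Foxd2, Foxp2, Foxk1, Foxs1, Foxd1, Foxi1, Foxa2 and Foxo1. Foxm1 and Foxi3 were among those called as rising. These were 10 genes that fell (29.4%), beside 14.8% of all 21574 genes tested, and 3 that rose (8.82%), beside 9.13% of all genes. Together 13 genes changed, beside 23.9% of all genes, and the other 21 were not called. The counts include genes that entered the test through 1 group alone, the one in which they were higher: 2 of those that rose, Foxi3 among them, through BIO, and Foxa2 through control. Among the 30 forkhead genes well above background in both groups on both arrays, 1 rose and 9 fell, beside 9.5% and 14.7% of all 20231 such genes. Control and BIO signals did not overlap for any of the 13 called genes. They did not overlap either for Foxj1, Foxl1, Foxn2, Foxn3 and Foxp4, which were not called. The calls come from the same hybridizations, so a lack of overlap is no separate support, and its share over all genes was not computed.

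The median log2 ratio of BIO over control was -0.22 over the 34 forkhead genes and -0.01 over all genes tested. On the single arrays the forkhead median was -0.25 in replicate 1 and -0.15 in replicate 2. Lower in BIO on both arrays were 19 forkhead genes (55.9%, all genes 38.1%) and higher on both were 5 (14.7%, all genes 34.7%). Across the 34 genes, which share the same arrays and dyes and are not independent replicates, the ratios of replicate 1 followed those of replicate 2 with a Pearson r of 0.88 and a Spearman rho of 0.62, beside 0.80 and 0.68 over all probes tested.

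**Figure D1:**
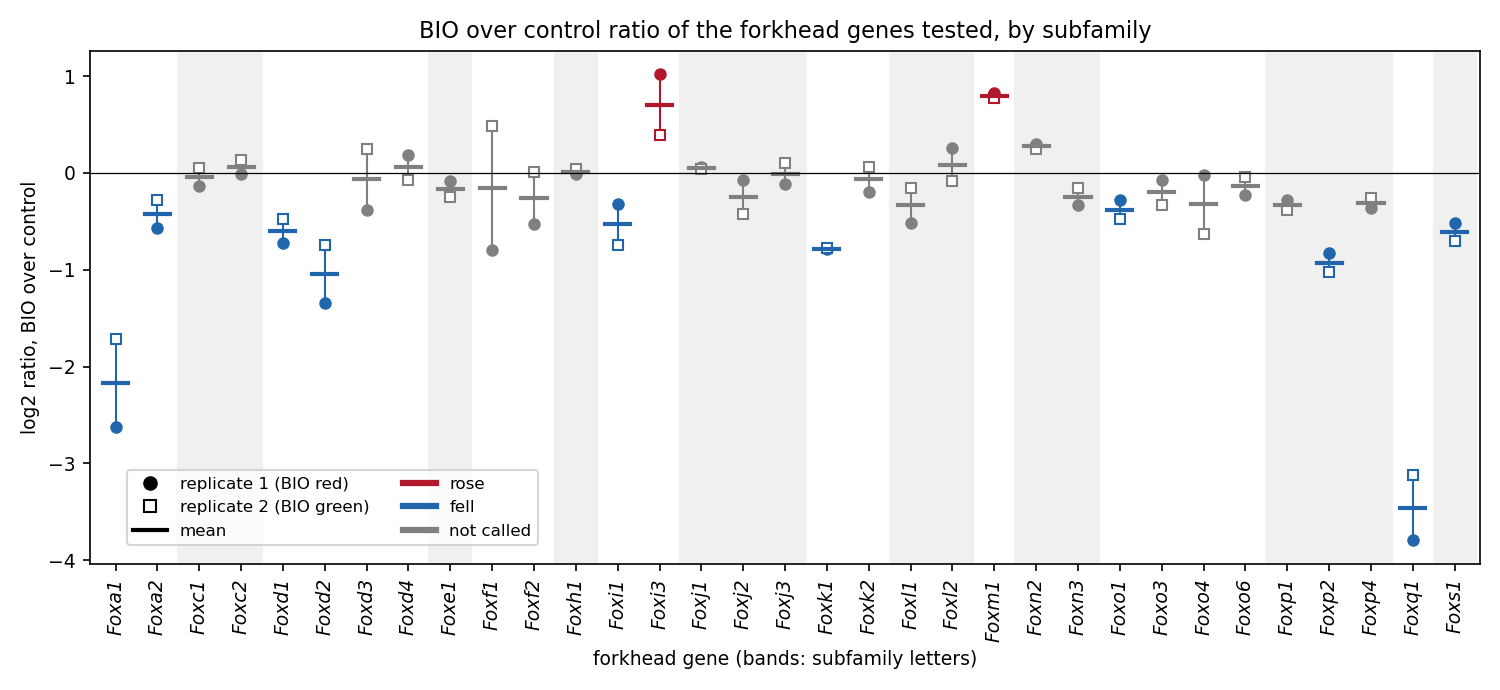
Log2 ratio of BIO over control (y axis) for 33 of the 34 forkhead genes tested (x axis, in order of subfamily letter), with filled circles for replicate 1, open squares for replicate 2, bars for the mean and color for the limma call. Foxq1 and Foxa1 lie far below the other genes, between -3.79 and -1.72, while the means of subfamilies C, J, L, N and O lie between -0.38 and 0.27.

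Subfamilies A and Q held the largest falls in the family. Foxq1, a gene active in epithelia and hair follicles, had processed signals of 7995 in control and 549 in BIO on replicate 1, and of 7775 and 913 on replicate 2. Its BIO signals were far below both control signals on either array. The log2 ratios were -3.79 and -3.12, averaging -3.46 ± 0.16 (SE, n = 2; limma, adjusted p = 3.08e-05), which is 11.0-fold lower.

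Foxa1, a pioneer factor gene of epithelia that is also expressed in urothelium, had signals of 11880 in control and 2020 in BIO on replicate 1, and of 11980 and 3593 on replicate 2. The groups did not overlap, and the control signals were nearly equal on the arrays while the BIO signals were not. The log2 ratios were -2.62 and -1.72, with a mean of -2.17 ± 0.19 (SE, n = 2; limma, adjusted p = 0.000211). Foxa1 and Foxq1 were the only members past the rule on intensity and fold change used elsewhere in the study, which asks for at least 2-fold in 1 direction on both arrays and a brighter channel of at least 100. With the deposited score table, whose values are rounded, Foxq1 (-3.47) and Foxa1 (-2.17) kept their ratios but not the call (adjusted p = 0.126 and 0.185, limma), and of all 13 calls that of Foxm1 alone was kept. The rule on intensity and fold change was met by 2.04% of all genes in the lower direction and 1.04% in the higher, and by 0 forkhead genes in the higher.

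Foxa2, the close relative of Foxa1 in endoderm, was near the limit of measurement. Its signals were 17.2 in control and 3.75 in BIO on replicate 1, and 16.3 and 8.90 on replicate 2, and the BIO signal of replicate 1 was not well above background. On the log2 scale the ratios were -0.57 and -0.28, and the mean of -0.42 was -0.16 with the Feature Extraction processed signals. Since Foxa2 entered the test only through control, its call is no evidence of a fall, and median centering, the processed signals or no filter on dim probes each removed it. A second Foxa2 probe was not well above background in any channel.

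In subfamily D, the genes known from kidney mesenchyme and stroma fell. Foxd2, which marks mesenchyme of the developing kidney, had signals of 3569 in control and 1466 in BIO on replicate 1, and of 3369 and 2044 on replicate 2. Both BIO signals were below both control signals. The log2 ratios were -1.34 and -0.74, with a mean of -1.04 ± 0.15 (SE, n = 2; limma, adjusted p = 0.00198).

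Foxd1, the marker of stromal progenitors in the kidney, had signals of 7825 and 4724 on replicate 1 and of 8978 and 6502 on replicate 2, control before BIO. The groups did not overlap here either. Its mean log2 ratio was -0.60 ± 0.12 (SE, n = 2; limma, adjusted p = 0.00765). With the processed signals, the adjusted p was 0.0648 for Foxd2 and 0.0688 for Foxd1 (limma), past the threshold of 0.05 for neither.

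Foxd3, a gene of neural crest, differed between the arrays, at -0.38 in replicate 1 and 0.25 in replicate 2. Foxd4 had a mean of 0.06. Neither was called.

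Among the remaining genes that fell, Foxp2, which acts in lung epithelium and neurons, had signals of 1671 in control and 939 in BIO on replicate 1, and of 1980 and 1041 on replicate 2. Each BIO signal was below each control signal. The log2 ratios were -0.83 and -1.03, with a mean of -0.93 ± 0.11 (SE, n = 2; limma, adjusted p = 0.000878).

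Foxk1, a gene of muscle precursors and metabolism, had signals of 2049 and 1191 on replicate 1 and of 1936 and 1174 on replicate 2, control before BIO. The groups did not overlap. Its 2 log2 ratios were nearly the same, -0.79 and -0.78, with a mean of -0.78 ± 0.11 (SE, n = 2; limma, adjusted p = 0.0016). Foxk2, the other K member, had a mean of -0.07 and was not called (adjusted p = 0.741).

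Foxs1, known from pericytes and other perivascular cells, was dim, with signals of 36.6 in control and 19.0 in BIO on replicate 1 and of 44.9 and 17.2 on replicate 2. The BIO signals lay below the control signals on both arrays. On average the log2 ratio was -0.61 ± 0.11 (SE, n = 2; limma, adjusted p = 0.00635), and with the processed signals, without the offset that pulls dim ratios toward 0, it was -1.17. Pdgfrb, a receptor gene of pericytes that is listed here among the mesenchymal markers, was far brighter. It fell from 8670 to 1669 on replicate 1 and from 9573 to 2483 on replicate 2. Its mean log2 ratio was -2.17 ± 0.15 (SE; limma, adjusted p = 7.91e-05), the lowest of that list, in which 10 of 12 genes fell and 1 rose. A change of pericytes was not tested.

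Foxi1, which acts in the intercalated cells of the kidney and in the inner ear, had signals of 81.7 and 64.0 on replicate 1 and of 113 and 59.1 on replicate 2, control before BIO. They did not overlap, though replicate 1 showed a smaller difference. The mean log2 ratio was -0.53 ± 0.13 (SE, n = 2; limma, adjusted p = 0.0221), and the call was lost with the processed signals (adjusted p = 0.119).

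Foxo1, an effector of insulin signaling, had signals of 3843 and 3206 on replicate 1 and of 4459 and 3243 on replicate 2, control before BIO. The 4 signals did not overlap between the groups. Its mean log2 ratio was -0.38 ± 0.11 (SE, n = 2; limma, adjusted p = 0.0453), the closest to the threshold of all forkhead calls, and 5 alternatives ended the call, with adjusted p from 0.0542 to 0.245.

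Of the 3 genes that rose, Foxm1 alone was bright. This regulator of the G2 and M phases of the cell cycle had signals of 686 in control and 1298 in BIO on replicate 1, and of 793 and 1423 on replicate 2. Both BIO signals exceeded both control signals. The log2 ratios were 0.82 and 0.78, with a mean of 0.80 ± 0.11 (SE, n = 2; limma, adjusted p = 0.00146).

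Foxi3, a gene of ectodermal placodes and appendages, was near background in control. Its signals were 14.3 in control and 56.3 in BIO on replicate 1, and 15.6 and 28.1 on replicate 2, where the control was not well above background. The groups did not overlap, and the BIO signals differed from each other more than from control in replicate 2. Its log2 ratios were 1.02 and 0.39, with a mean of 0.71 that was 1.38 with the processed signals, where the call was lost. Foxi3 entered the test only through BIO, so that its call is no evidence of a rise.

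**Figure D2:**
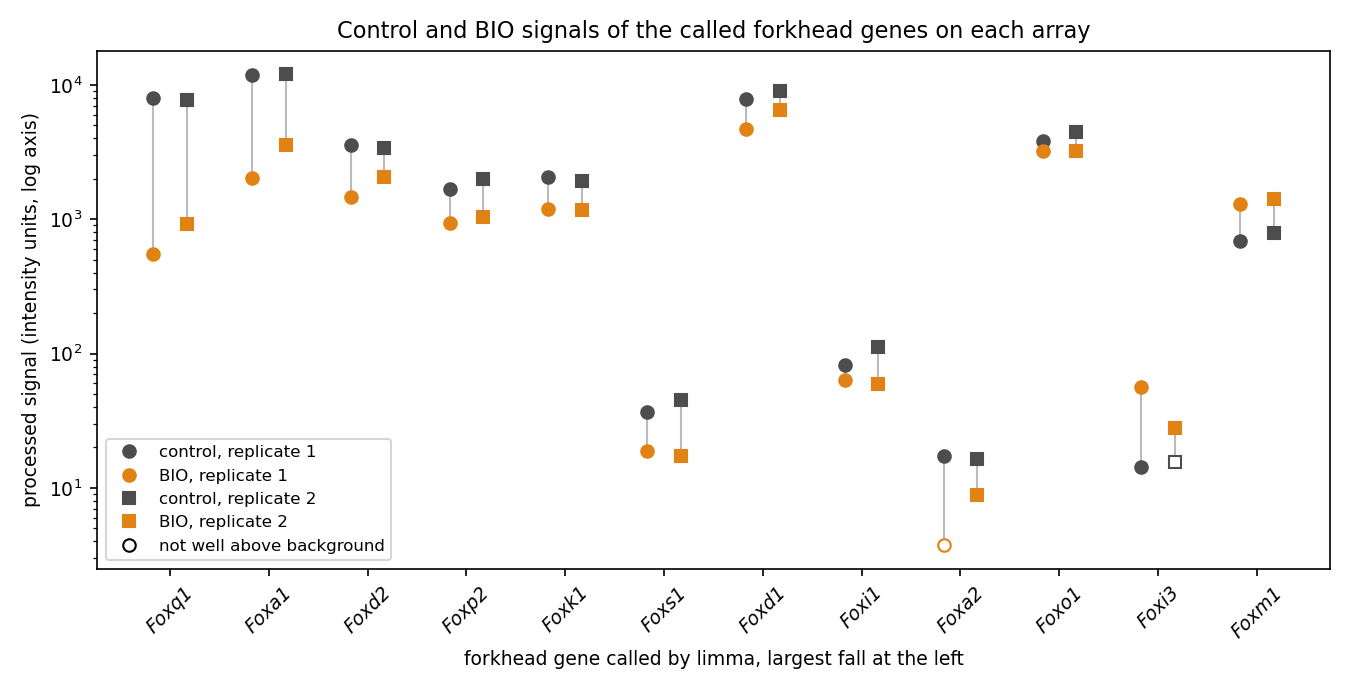
Processed signals (y axis, log scale) of 12 of the 13 called forkhead genes (x axis, ordered by mean log2 ratio) in control, in gray, and BIO, in orange, with circles for replicate 1, squares for replicate 2 and open symbols where the channel was not well above background. The bright genes Foxq1 and Foxa1 show the widest gaps, from 7995 to 549 and from 11880 to 2020 on replicate 1, and signals of Foxa2, Foxi3 and Foxs1 lie below 100. Heights of different genes come from different probes and do not compare.

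Foxf1, the mesenchymal target of SHH, did not move in a common direction. Its signals were 4882 in control and 2924 in BIO on replicate 1, but 3964 and 5404 on replicate 2. The groups thus overlapped, with BIO holding both the lowest and the highest value. The log2 ratios were -0.80 and 0.48, with a mean of -0.16 ± 0.25 (SE, n = 2; limma, adjusted p = 0.7). The second Foxf1 probe, which shares no more than 4 bases in a row with the first, showed the same split, at -0.51 and 0.22 (adjusted p = 0.58). Foxf1 was the only forkhead gene at least 0.3 below 0 on one array and 0.3 above on the other, a pattern found in 0.946% of all genes. In the files, the replicate and the dye of BIO changed together, so that a difference between pools and a difference between dyes cannot be told apart.

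Foxf2, its paralog, averaged -0.26 (limma, adjusted p = 0.236), from -0.53 in replicate 1 and 0.01 in replicate 2. Opposite signs on the 2 arrays, of any size, were seen for 10 forkhead genes (29.4%), beside 27.1% of all genes, and 8 of these were lower in replicate 1 and higher in replicate 2. None of the 13 called genes was among them.

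Foxc1 and Foxc2, mesenchymal genes of the urogenital ridge and of vessels, were bright and not called. Foxc1 had signals of 7450 and 6943 on replicate 1 and of 8163 and 8541 on replicate 2, control before BIO, and Foxc2 had 20670 and 21250, and 22200 and 24870. For both, the groups overlapped. The mean log2 ratios were -0.04 ± 0.11 for Foxc1 and 0.06 ± 0.11 for Foxc2 (SE, n = 2; limma, adjusted p = 0.83 and 0.749).

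Foxl1, a gene of gut mesenchyme, had the lowest mean of the genes not called, -0.33 (adjusted p = 0.0923). Over all 21 genes not called the means ran from -0.33 to 0.27, with 15 below 0 and 6 above. The highest was that of Foxn2. Foxj1, the regulator of motile cilia, was dim, with signals between 17.6 and 19.8 in all 4 channels, and had a mean of 0.05. The widely expressed Foxj3 had -0.01 and Foxo3 -0.20.

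Several forkhead genes lie within 200 kb of each other in the genome, and no such neighboring pair held 2 called genes. The pairs were few, and the share of such pairs over all genes was not computed. On chromosome 13, the Foxq1 probe was 70.9 kb from that of Foxf2, which was 179 kb from that of Foxc1 (mm9). Foxq1 fell by 3.46 on the log2 scale, whereas Foxf2 was at -0.26 and Foxc1 at -0.04. On chromosome 4, Foxd2 fell by 1.04 and Foxe3, 18.8 kb away, was not measurable. On chromosome 8, Foxf1, Foxc2 and Foxl1 followed each other at 30.7 and 11.7 kb, with means of -0.16, 0.06 and -0.33, none of them called. The differences between neighbors were not tested.

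More than 1 probe was tested for 8 of the genes, 20 probes in all, which allowed each ratio to be read at another place of the transcript. All 19 pairs of probes of a gene had means of the same sign. These pairs are not separate readings, since they include every combination of the 5 Foxp1 probes and 2 pairs of largely shared sequence. All probes read the same RNA on the same arrays, and the share over all genes was not computed. In 2 genes, Foxo1 and Foxp1, the calls differed between probes. Counted by probe, 13 of 46 forkhead probes fell, beside 14.3% of all probes, and 4 rose, beside 8.95%.

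The Foxo1 probes lay at -0.38 (called, adjusted p = 0.0453) and -0.36 (not called, adjusted p = 0.0537), which differ by less than their errors of 0.11. For Foxp2, the probes at chr6:15391821-15391880 and, across a splice junction, chr6:15363873-15365044 gave -0.97 and -0.93, both called. For Foxm1, they gave 0.80 and 0.55, both called (adjusted p = 0.00146 and 0.0456), and the ratio of the dimmer probe was 0.91 in replicate 1 and 0.19 in replicate 2.

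Foxp1, a regulator of lung, heart and lymphocytes whose promoter with both motifs is printed above, had 5 tested probes, of which 2 were on the same transcript. The brightest, at chr6:98880084-98880143 had signals of 7750 and 6642 on replicate 1 and of 10930 and 8272 on replicate 2, control before BIO, which overlapped between groups across arrays. Its mean was -0.33 ± 0.11 (SE, n = 2; limma, adjusted p = 0.064). Probes that fell were that on AK144920 at chr6:98956679-98956738 with -0.48 (adjusted p = 0.0185) and that on NM_001197321 at chr6:99112925-99112984 with -0.73 (adjusted p = 0.0031). The others stood at -0.45 (adjusted p = 0.107) and -0.25 (adjusted p = 0.198). With the mean of all probes of a gene in place of the brightest one, Foxp1 would have been called, at -0.45 (adjusted p = 0.0196). The difference between the probes was not tested.

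Foxp4 and Foxo4 had probe pairs that shared 54 and 52 bases in a row and are thus no separate reading. The Foxp4 probes stood at -0.31, -0.32 and, at a dimmer site, -0.21, and those of Foxo4 at -0.32 and -0.29, none of them called.

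**Figure D3:**
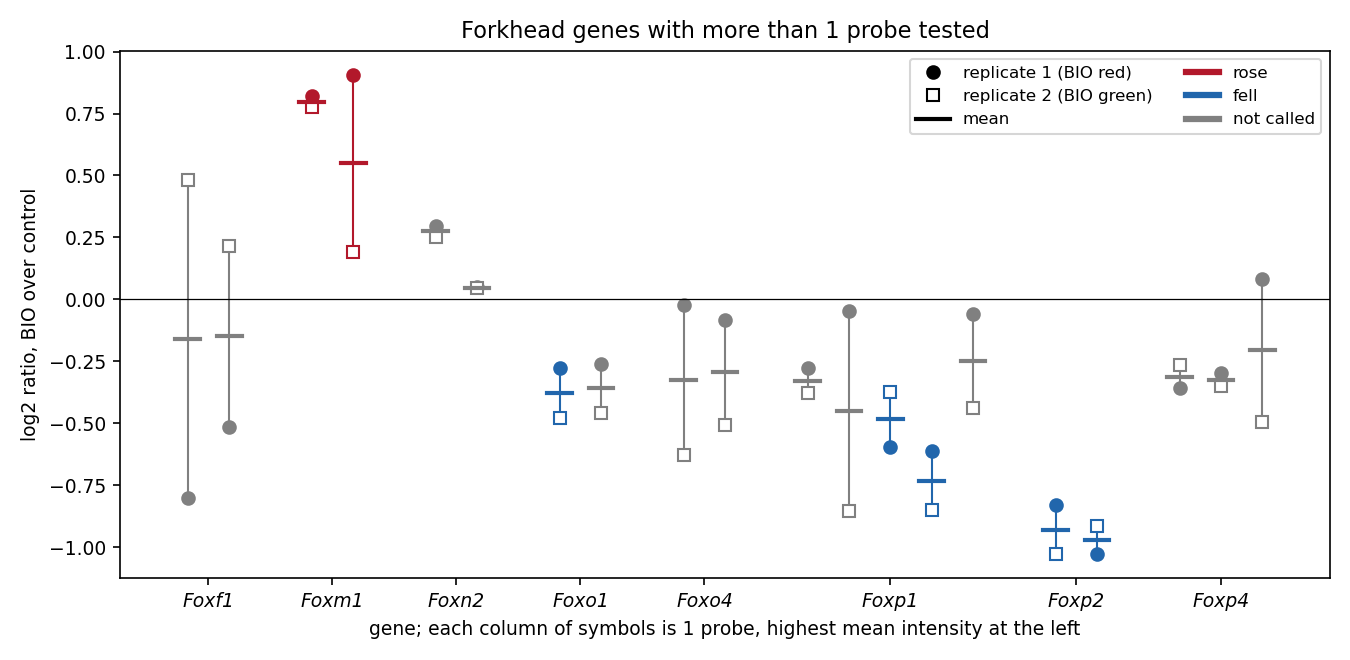
Log2 ratio of BIO over control (y axis) for each tested probe of the 8 forkhead genes with more than 1 (x axis, probes of highest intensity at the left within a gene), with circles for replicate 1, squares for replicate 2 and bars for the mean. Both Foxf1 probes have replicate 1 below 0 and replicate 2 above it, and the 5 Foxp1 probes lie between -0.25 and -0.73 on average.

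Genes that forkhead proteins are known to regulate, or that act with them, were read from lists. These lists were chosen with earlier results of these data known, so their counts are descriptions and no independent evidence. Of 16 FOXM1 target genes, which encode the machinery of mitosis, 14 rose and 0 fell, beside 9.13% of all genes that rose, with a median log2 ratio of 0.91, beside -0.01 for all genes. Kif20a, a kinesin of the dividing cell, rose most, by 1.26 (adjusted p = 0.000192), and Aurkb, a kinase of the mitotic spindle, had 1.25. Cdc25b (0.26) and Cks1b (0.19) were not called.

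Of 16 FOXO target genes that were measurable, 1 rose and 4 fell, beside 9.13% and 14.8% of all genes, with a median of -0.08. Klf2, a transcription factor gene of endothelium, fell by 2.63 (adjusted p = 3.18e-05), Pdk4, which encodes a regulator of glucose oxidation, had -0.68, and Fbxo32, which encodes a ubiquitin ligase subunit, rose by 0.86. Most of the list, 11 genes, was not called. Of 7 measurable FOXJ1 targets of motile cilia, 2 rose and 1 fell, again beside 9.13% and 14.8% of all genes. Among them Tekt1, a tektin of the axoneme, was at 1.25 and Tppp3 at -0.45.

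The axis of SHH, FOXF1 and BMP4 had 14 measurable genes, of which 3 fell and 0 rose, beside 14.8% and 9.13% of all genes, with a median of -0.01, equal to that of all genes at this precision. Bmp4 stood at -0.51 on both arrays (adjusted p = 0.0111), the epithelial ligand gene Shh at -0.43 (adjusted p = 0.0343) and Gata6, a mesenchymal transcription factor gene, at -0.39 (adjusted p = 0.042). The SHH target genes Ptch1 (0.08) and Gli1 (0.11) were not called.

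Of 8 other transcription factor genes of urothelium, 1 rose and 2 fell, beside 9.13% and 14.8% of all genes, with a median of -0.08. Grhl3 rose by 1.05, and Pparg and Ehf had -1.54 and -1.48. Of 17 measurable partners and regulators of forkhead proteins, 1 rose and 2 fell, beside the same shares, and 14 were not called. The corepressor genes Tle4 and Tle2 were at 0.80 (limma, adjusted p = 0.00535) and -0.38 (limma, adjusted p = 0.0369).

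**Figure D4:**
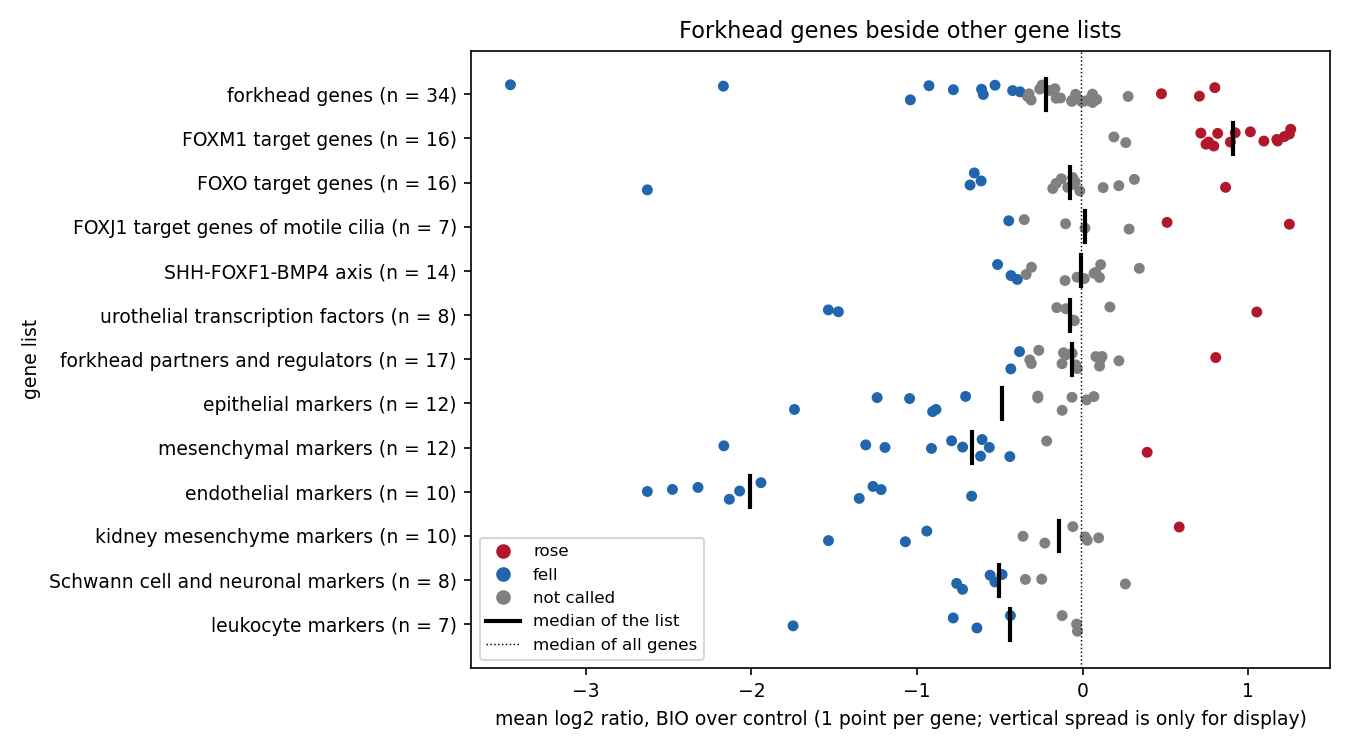
Mean log2 ratio of BIO over control (x axis) of every measurable gene, 1 point per gene, in the forkhead family and in 12 other gene lists (y axis), colored by the limma call, with a black bar at the list median and a dotted line at the median of all genes. The FOXM1 targets lie to the right, with a median of 0.91, the endothelial markers to the left, with -2.01, and the forkhead genes spread from -3.46 to 0.80.

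RNA of whole ureters cannot tell fewer cells of a type from less RNA per cell, and markers of several cell types moved together with the forkhead genes. The epithelial gene Epcam had signals between 3974 and 4299 in the 4 channels, and the ureteric mesenchyme gene Tbx18 between 8537 and 10570. Neither was called, whereas most mesenchymal markers fell. All 10 kidney mesenchyme markers were measurable too, among them Eya1, between 11600 and 14850, and Gdnf, between 90.4 and 116. Of all genes tested, 14.8% fell and 9.13% rose, beside which the counts of these lists stand. The marker lists too were chosen with earlier results of these data known, so their counts only describe them. Of 12 epithelial markers 6 fell and 0 rose (median -0.49). Their summed signal was 84206 and 85937 in control and 48618 and 55650 in BIO. The brightest were Krt8 and Krt18, at 28020 and 28780 in control of replicate 1. Krt7 fell most, by 1.74, whereas Epcam had a mean of 0.02. Of 12 mesenchymal markers 10 fell and 1 rose (median -0.67), with sums of 357185 and 393714 in control and of 219080 and 240278 in BIO. All 10 endothelial markers fell (median -2.01), with sums of 26940 and 32077 in control and of 4881 and 9158 in BIO.

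Of 10 kidney mesenchyme markers 3 fell and 1 rose (median -0.14), beside 14.8% and 9.13% of all genes. Their sums were 27295 and 28579 in control and 23916 and 24102 in BIO. Meox1 had -1.54 and Wt1 0.58. Of 8 measurable Schwann cell and neuronal markers 5 fell (median -0.51), beside 14.8% of all genes. Their sums lay between 35002 and 38697 in control and between 25546 and 35022 in BIO. Of 7 leukocyte markers 4 fell (median -0.44), again beside 14.8% of all genes. Their sums lay between 5686 and 6523 in control and between 3895 and 5423 in BIO. The part of such shifts in the falls of Foxq1, Foxa1, Foxd1, Foxd2 and Foxs1 was not tested.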

How the data were processed

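Both arrays were Agilent 2-color arrays with AlexaFluor555 (green) and AlexaFluor647 (red). The authors quantified them with Agilent Feature Extraction 10.7.3.1, per the file headers, and deposited mean and background intensities as well as processed intensities that the software had background-subtracted and dye-normalized. They also deposited 1 score per probe and array, which behaves as a fold change with a sign, BIO against control, to 1 decimal (Pearson r of its log2 with the processed ratio 0.988 and 0.984, median 1 on both arrays). How it was centered is not known.

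Mean intensities were corrected by normexp (offset 50) and loess in limma 3.58.1 (R 4.3.3), without control and outlier spots (3.49% and 3.16%). No spot was saturated (0 on both arrays). Spots of a probe were averaged and the ratio of the swapped array was turned. Probes well above background in control or in BIO on both arrays were tested with lmFit and eBayes, two-sided, at an adjusted p of 0.05. The arrays are separate pools but only 2, which limits the precision (median moderated SE 0.111), and the offset pulls ratios of dim probes toward 0. Names came from RefSeq (GRCm38.p6), and probe coordinates are mm9, as in the files. For the fold-change rule, signals were raised to 15 and centered on the median.

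The members, the gene lists, the rule for genes described in full (those called, Foxq1, Foxa1, Foxf1, genes whose probes disagreed or whose arrays differed in sign by 0.3) and the tests were chosen with earlier results of these data known, and the motifs after the values were seen. The code was tested on simulated data. Promoters were searched in Python 3.11.15. Alternatives were the processed signals, median centering, an offset of 16, no filter, the mean of probes, outliers kept, the score table, each replicate left out and, added after seeing the data, genes well above background in both groups alone. A few genes that enter the counts are not reported here by name.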

Additional observations from a re-analysis of the deposited data

How the results depend on the processing

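Across the processing alternatives, the count of forkhead genes that fell went from 10 to 5 with the Feature Extraction processed signals and to 2 with the deposited score table, and the count that rose went from 3 to 1 with either. Of all genes, 5.22% fell and 3.69% rose with the processed signals, and 6.11% and 8.94% with the score table, so that the 2 of 34 forkhead genes that fell there lay near the share of all genes. With the processed signals, 7 of the 13 calls were lost, among them those of Foxa2, Foxd1, Foxd2, Foxi1, Foxi3 and Foxo1. Over all genes the counts went from 1970 to 797 that rose and from 3184 to 1126 that fell, and to 827 and 1939 with median centering. With genes well above background in both groups alone, a setting chosen after seeing the data, 1 forkhead gene rose. The score table holds 1 decimal and gave the same value on both arrays for 19.9% of probes, and its calls of a fall were those of Foxn3 and Foxp4 (both -0.26). The median of the forkhead genes, -0.22, was -0.15 with the processed signals, -0.14 with the score table and -0.069 with no filter on dim probes, under which 44 genes entered. It ran from -0.25 to -0.15 when a replicate was left out. The genes well above background ran from 38 to 39 on single arrays. With a minimum of 1.5-fold, 6 genes in place of 2 passed the fold-change rule, and 2 to 3 did on single arrays. Over single genes and alternatives other than a left-out replicate, 210 results kept their side of the threshold, 25 calls were lost, 3 were gained and 0 turned in direction. The main test was already paired, because each ratio holds the control and the BIO pool of 1 array. With 2 ratios a further block leaves no residual degree of freedom. Dim spots limit Foxa2, Foxh1 and Foxi3.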
